A study of Mus musculus with 8 samples.

Results

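The ribosome biogenesis factors described here are the proteins that make, fold and modify ribosomal RNA and assemble it into ribosomal subunits, without being part of the finished ribosome. The set was given as a list of 52 gene names covering the nucleolar scaffold and RNA polymerase I factors, the small nucleolar ribonucleoproteins (snoRNPs), the small subunit processome and the assembly factors of the 40S and 60S subunits. Values could be read for 51 of the 52 genes, out of 33879 genes given values in the whole series, and Noc2l was not analysed here. All 51 passed the filter on low values in both experiments (at least 1 RPM in at least 2 libraries of the experiment).

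A ribosome begins in the nucleolus, where RNA polymerase I copies a long precursor that holds the 18S and 28S ribosomal RNAs. Box C/D and box H/ACA snoRNPs guide methylation and pseudouridylation of this precursor, the small subunit processome folds and cuts its 18S part, and other factors carry the large subunit through the nucleolus, nucleus and cytoplasm. The program is switched on strongly when a resting T cell is activated and grows, and many of its genes are known targets of the transcription factor MYC, which binds the E-box.

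CD4 T cells of C57BL/6 mice were stimulated with antibodies against CD3 and CD28 and grown into Th1 cells (helper cells that make interferon gamma) under IL-12 (2 ng/ml), with IL-4 blocked by an antibody. All 4 groups shared this strain and culture. The knockdown experiment compared 2 libraries of cells transduced with a short hairpin RNA against Pcbp1, an iron chaperone and RNA-binding protein, with 2 libraries of cells transduced with a scrambled hairpin, in total RNA depleted of ribosomal RNA. The chelator experiment compared 2 libraries of cells treated with ciclopirox olamine (CPX), which binds intracellular iron, with 2 libraries treated with its solvent DMSO, in polyA RNA. The sources used here give neither the number of hairpins nor the dose of CPX and the time of treatment. Whether replicates are separate cultures or animals is not in the labels, so the p-values measure only the spread between these libraries, which may be technical. In the hairpin groups the CD8 T cell markers, given below, followed the replicate number, and the main fits took no pairing into account.

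Totals ran from 14174293 to 15518303 reads per library in the knockdown experiment and from 19193784 to 19662145 units of the deposited scale in the chelator experiment. RPM is a gene's value divided by its library's total and multiplied by 1e+06. The Pcbp1 transcript measured 44 and 51.7 RPM in the scramble libraries against 15.1 and 16.1 RPM in the libraries of the Pcbp1 hairpin, here called the knockdown libraries (log2 fold change -1.73, standard error (SE) 0.12, adjusted p = 3.18e-05 by the quasi-likelihood test of edgeR). In the chelator experiment it measured 506 and 538 RPM with DMSO against 238 and 199 RPM with CPX (-1.26, SE 0.20, limma, adjusted p = 0.00611, and 0.0583 or 0.0648 without DMSO replicate 1 or 2). The replicates were closest in the hairpin groups, where 77 (scramble) and 94 (knockdown) of 11575 genes differed over 2-fold between the 2 libraries, against 524 (DMSO) and 1773 (CPX) of 11485 genes. Exons of 15 members overlap those of another annotated gene, and without a stated strand setting reads may be shared there: Mybbp1a, Nop56, Dkc1, Nhp2, Wdr3, Wdr36, Imp4, Nop14, Bysl, Tsr1, Pes1, Bop1, Rrp1b, Gnl2 and Gnl3. The 9 T cell markers summed to 2468 to 4806 RPM in every library, and the largest part of each sum was Ptprc (850 to 2715 RPM). Of the 9, 3 rose and 4 fell after the knockdown, and 1 rose and 3 fell with CPX. In the scramble libraries the 5 Th1 markers summed to 50760 and 41299 RPM. They summed to 25180 and 19339 RPM in the knockdown libraries, where 1 rose and 2 fell. The sums were 14303 and 24306 RPM with DMSO and 1258 and 5147 RPM with CPX, where 4 fell. Most of each sum was Ifng, in the same order 50383 and 40954, 24818 and 18990, 14026 and 23804, and 1106 and 4983 RPM. The part of these marker changes in the results for the factors was not tested.

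The promoters of the factors are shown first, because the members that moved most can then be read against their sequence. RefSeq promoter windows (GRCm38.p6, 250 bases before to 50 bases after the start, 300 in all) were found for 42 of the 51 genes. An E-box (CACGTG, the same on both strands) lay in 8 of the 42 windows (19.0%), against 12.6% of 7326 tested genes with a window and 8.09% of all 27025. The letters CCGGAA or, on the other strand, TTCCGG lay in 20 windows (47.6%, against 34.6% and 16.7%). They are a strict form of the site bound by ETS factors, here called the ETS core, and looser forms were not counted. TATAAA or TTTATA lay in 3 windows (7.14%, against 8.09% and 15.7%) and CCAAT or ATTGG in 16 (38.1%, against 43.5% and 41.1%). The E-boxes of 7 members, in capitals with 12 bases on each side, read 5′ to 3′ on the gene's strand as follows, and that of the eighth, Mybbp1a, lay too near the edge of the window to be shown alike.
Imp4 (chr1:34439696-34439725, + strand): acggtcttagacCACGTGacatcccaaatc
Nmd3 (chr3:69721929-69721958, + strand): cgccccttgctaCACGTGtattctttgacc
Nop2 (chr6:125131811-125131840, + strand): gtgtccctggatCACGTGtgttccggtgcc
Ltv1 (chr10:13193092-13193121, - strand): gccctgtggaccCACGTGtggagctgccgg
Pes1 (chr11:3963965-3963994, + strand): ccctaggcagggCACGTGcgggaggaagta
Tsr1 (chr11:74898092-74898121, + strand): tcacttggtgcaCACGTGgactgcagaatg
Wdr43 (chr17:71616220-71616249, + strand): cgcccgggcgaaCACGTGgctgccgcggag

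The E-boxes of Imp4, Nmd3 and Nop2 lay before the start and those of Ltv1, Pes1, Tsr1 and Wdr43 just after it. Of the 8 members with an E-box 5 rose after the knockdown, 1 fell and 2 were not called, and 5 fell with CPX. Of the 34 members with a window and no E-box 17 rose, 10 fell and 7 were not called, and 28 fell with CPX. CCAAT or ATTGG, 1 of 4 motifs counted, split the members more unevenly than the E-box did. Of the 16 with it 4 rose after the knockdown, 7 fell and 5 were not called (median log2 fold change -0.13), and of the 26 without it 18 rose, 4 fell and 4 were not called (0.54), while 11 and 22 fell with CPX. Over all genes tested, 29.3% were called higher and 26.7% lower after the knockdown, and 24.8% lower with CPX. These shares were not split by motif, so the counts cannot be set against other genes with or without it. No test of any motif was run. Next are the 100 bases before the start of 7 members with large changes, with ETS cores in capitals. Of the 7 members with a window that rose more than 3-fold after the knockdown, 3 held a core (Nolc1, Gar1 and Bysl). The other 4 (Ddx21, Noc4l, Mybbp1a and Pes1) held neither CCGGAA nor TTCCGG in their 300 bases, and looser ETS sites were not counted. The first 2 of these 4 are shown, and Dkc1 and Nat10 had the largest falls with CPX.
Nolc1 (chr19:46075747-46075846, + strand): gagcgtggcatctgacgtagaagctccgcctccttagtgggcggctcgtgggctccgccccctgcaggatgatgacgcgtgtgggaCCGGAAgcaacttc
Gar1 (chr3:129831397-129831496, - strand): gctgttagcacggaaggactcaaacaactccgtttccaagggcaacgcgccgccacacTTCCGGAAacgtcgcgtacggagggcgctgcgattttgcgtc
Bysl (chr17:47611493-47611592, - strand): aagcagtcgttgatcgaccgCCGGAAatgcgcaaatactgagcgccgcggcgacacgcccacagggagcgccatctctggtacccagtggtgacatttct
Ddx21 (chr10:62602299-62602398, - strand): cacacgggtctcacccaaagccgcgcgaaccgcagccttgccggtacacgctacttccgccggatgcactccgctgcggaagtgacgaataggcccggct
Noc4l (chr5:110653383-110653482, - strand): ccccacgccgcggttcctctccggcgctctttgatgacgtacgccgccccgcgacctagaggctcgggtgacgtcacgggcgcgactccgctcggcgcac
Dkc1 (chrX:75095754-75095853, + strand): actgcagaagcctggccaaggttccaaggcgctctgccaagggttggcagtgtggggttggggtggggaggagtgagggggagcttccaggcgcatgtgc
Nat10 (chr2:103761271-103761370, - strand): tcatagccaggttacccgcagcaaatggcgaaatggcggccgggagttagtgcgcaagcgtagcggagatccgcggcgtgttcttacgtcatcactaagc

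The ETS core lay 14 bases before the start in Nolc1 and 80 bases before it in Bysl, and Gar1 held both orientations overlapping in 1 run. Of the 20 members with an ETS core in the 300 bases 10 rose after the knockdown and 15 fell with CPX, and of the 22 without one 12 rose and 18 fell. These are matches of letters only, and no binding was measured.

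After the knockdown of Pcbp1 the factors split. Of the 51, 28 rose, 14 fell and 9 were not called (edgeR's quasi-likelihood test, Benjamini-Hochberg adjusted p under 0.05 over all 11575 genes tested), where 29.3% of all genes tested were called higher and 26.7% lower. The rises were the larger changes: 17 members rose at least 2-fold and 0 fell as far, against 9.41% and 4.34% of all genes, and the log2 fold changes ran from -0.91 (Nip7) to 2.90 (Nolc1). The median over the 51 was 0.35 and over all genes 0.00. The 2 knockdown libraries both lay above both scramble libraries for 33 members (64.7%, against 45.8% of all genes). They both lay below for 15 (29.4%, against 32.7%). Falls were thus about as frequent among the members as among all genes, by calls and by overlap, and only rises were more frequent.

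With gene length and GC content taken out of the log2 values, an alternative chosen after the data were seen, 30 members rose, 7 fell and the median was 0.26. This fit also used limma in place of edgeR, and limma alone gave 29, 11 and 0.46. Over the genome the fit with both taken out called 3445 genes higher and 1806 lower, and limma alone 4003 and 2502, against 3396 and 3086 in the edgeR fit. Across every alternative tried, 25 of the 28 rises kept their call, and so did 6 of the 14 falls (Nop10, Wdr43, Wdr75, Wdr36, Wdr12 and Nip7).

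With CPX the factors fell. Of the 51, 39 fell, 0 rose and 12 were not called (limma on log2(RPM + 0.5), adjusted p under 0.05 over 11485 genes), where 24.8% of all genes tested were called lower and 20.0% higher. The median log2 fold change was -1.39, against -0.12 over all genes, and 35 members fell at least 2-fold (22.1% of all genes). The changes ran from -3.31 (Dkc1) to 0.19 (Gnl2, not called). Both CPX libraries lay below both DMSO libraries for 46 members and above for 1, Rrp1 (42.1% and 34.2% of all genes). At an unadjusted p under 0.05 limma gave 42 lower and 0 higher, and the authors' deposited table gave 41 and 0, where over all genes limma gave 30.1% lower and 24.1% higher and the table gave 29.4% and 25.3%.

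The number of falls called depended on which library was left out. Without DMSO replicate 1, 15 members were called, without DMSO replicate 2, 22, without CPX replicate 1, 44, and without CPX replicate 2, 34, with medians of -1.29, -1.48, -1.69 and -1.04. The same fits called 8.83%, 8.81%, 24.1% and 30.5% of all genes lower. With no filter on low genes 22 were called, and 10.9% of all 19119 genes. The 14 members called under every alternative were Dkc1, Nat10, Rrp1b, Bop1, Rrp12, Ddx56, Nop56, Ppan, Rrp9, Nop10, Bysl, Mphosph10, Imp3 and Ebna1bp2. CPX replicate 2 was below CPX replicate 1 for 45 of the 51 factors, by a median of 0.59 on the log2 scale. Over all genes the median was -0.10, in the opposite direction, and 9 members differed over 2-fold between the CPX libraries. DMSO replicate 2 was likewise below DMSO replicate 1 for 47 of the 51, by a median of 0.21, against -0.06 over all genes.

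**Figure D1:**
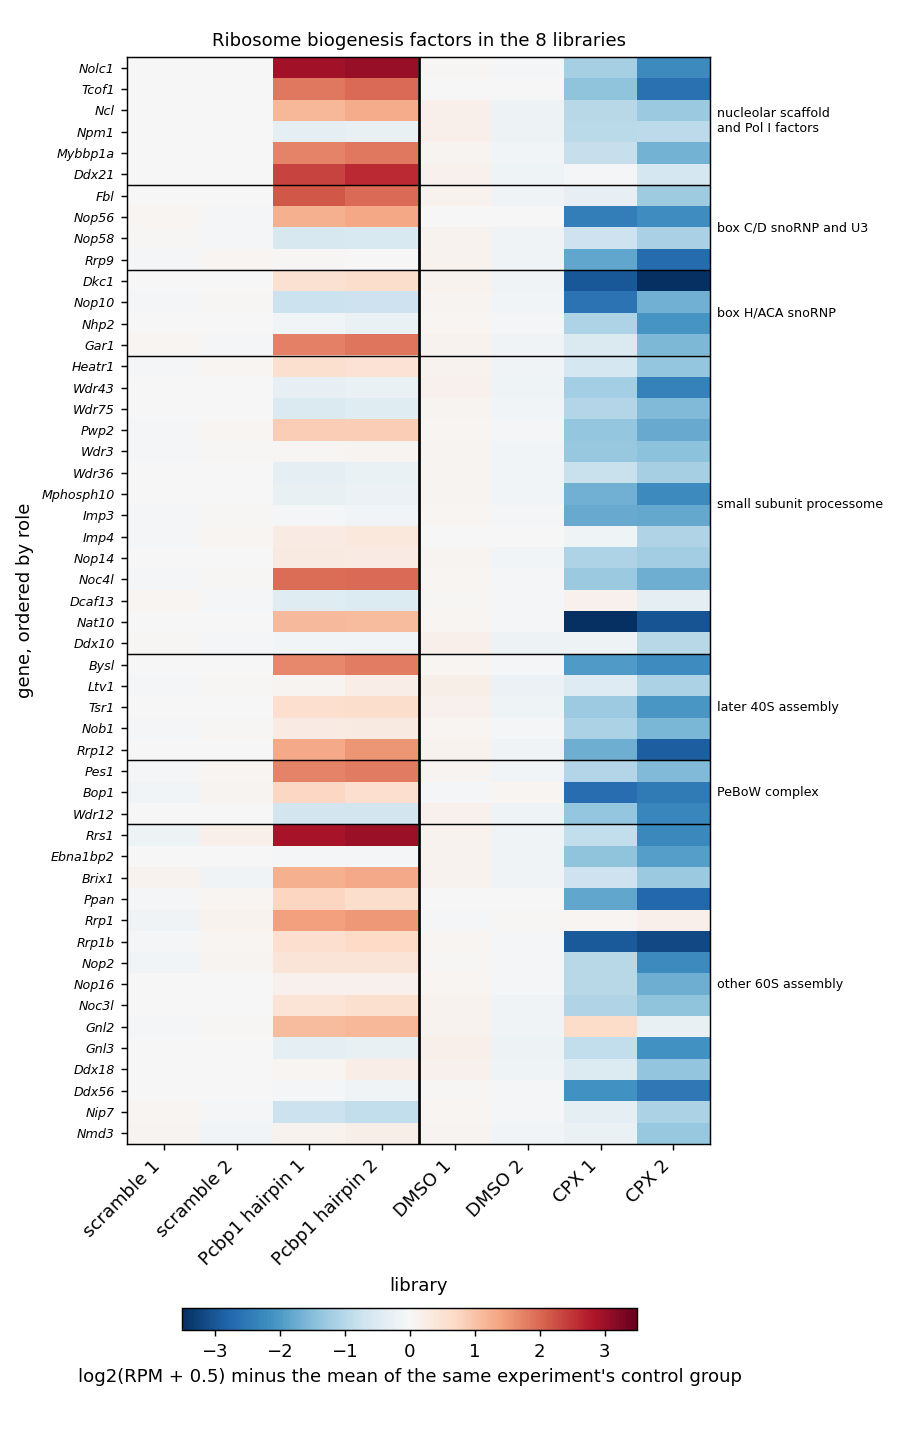
Heat map of the 51 factors (rows, grouped by role) in the 8 libraries (columns). Colour is log2(RPM + 0.5) minus the mean of the same experiment's control group. The Pcbp1 hairpin columns hold both red and pale blue rows (28 members rose, 14 fell), while 46 of the 51 rows are lower in both CPX columns than in both DMSO columns.

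Over the 8 libraries, the knockdown effect minus the CPX effect was above 0 and called for 42 members and below 0 for 0 (limma, 1 fit of all 8 libraries, 10430 genes tested in both experiments), where 35.2% of all genes were called above and 16.1% below. The median difference was 1.72 log2 units for the factors and 0.40 for all genes. At an unadjusted p under 0.05 the same fit gave 46 members above and 0 below (38.8% and 18.8% of all genes), and with TMM scaling 35 and 1 (30.5% and 26.5%). With TMM scaling 35 members were called after adjustment, the median was 1.35 and the split over all genes was 2851 above and 2444 below, against 3671 and 1675. The 9 members not called were Nop58, Imp4, Dcaf13, Ddx10, Gnl2, Gnl3, Ddx18, Nip7 and Nmd3. The experiments differ in RNA selection as well as in treatment, and these cannot be told apart in this contrast. The fit used 1 variance per gene over all 8 libraries, so the wide spread of the CPX libraries was pooled with the narrower hairpin spread. Some SEs of the difference were smaller than those of the CPX effect alone, as for Bysl (0.19 and 0.22).

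Placed by both calls, 22 members rose after the knockdown and fell with CPX (10.2% of the genes tested in both had this pattern), and 11 fell in both (7.36%). Another 6 rose after the knockdown and were not called with CPX (17.0%): Ddx21, Fbl, Gar1, Imp4, Rrp1 and Gnl2. Rrp9, Wdr3, Imp3, Nob1, Ebna1bp2 and Nop16 fell with CPX and were not called after the knockdown (9.43%), and Dcaf13, Ddx10 and Nip7 fell after the knockdown and were not called with CPX (16.8%). Ltv1, Ddx18 and Nmd3 were called in neither (24.1%). The sizes of the effects did not follow each other across members: Pearson's r between the log2 fold changes was -0.01 and Spearman's rho -0.06 (n = 51 genes, which share the libraries and are not independent replicates).

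**Figure D2:**
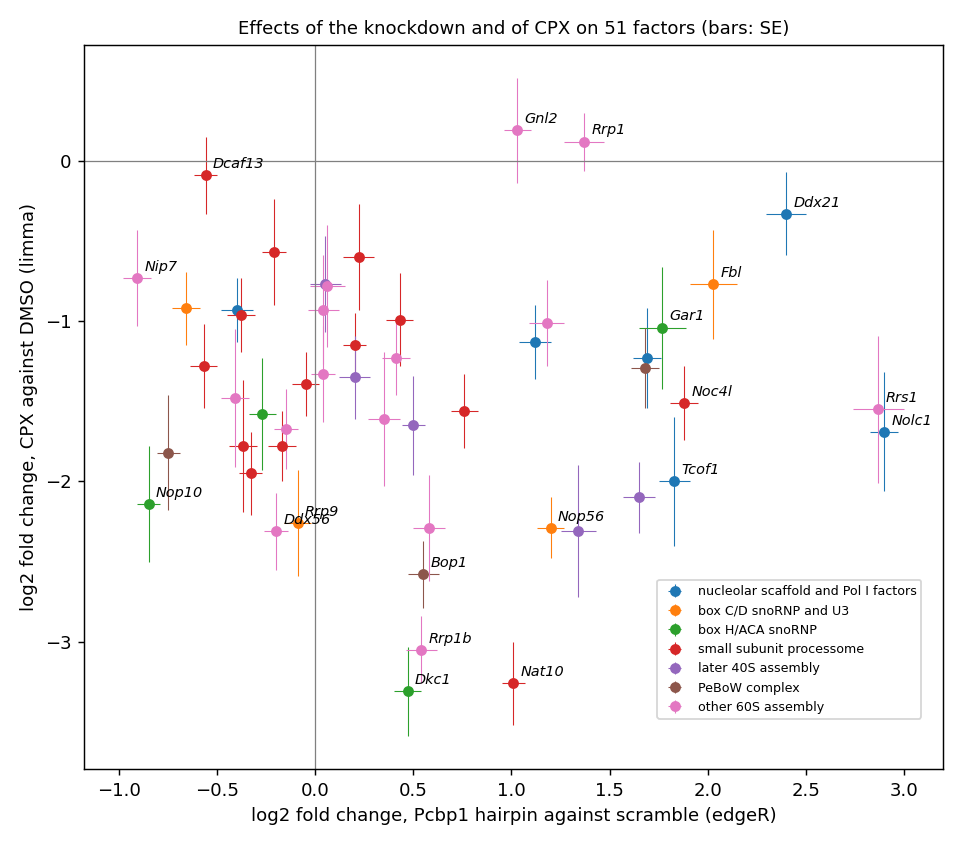
Log2 fold change after the knockdown (x axis) against that with CPX (y axis) for each of the 51 factors, coloured by role, with bars of 1 SE. Most points lie below the horizontal line at 0 and spread along the x axis from -0.91 (Nip7) to 2.90 (Nolc1). Dkc1, Nat10 and Rrp1b lie lowest.

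Among the 6 nucleolar scaffold and RNA polymerase I factors 5 rose after the knockdown and 1 fell, and 5 fell with CPX. For this and the later counts by role, 29.3% of all genes rose and 26.7% fell after the knockdown, and 24.8% fell with CPX. Nolc1 encodes Nopp140, a chaperone of snoRNPs in the nucleolus, and Tcof1 encodes treacle, its relative that supports RNA polymerase I. Nolc1 stood at 53.8 and 54.7 RPM in the scramble libraries and 420 and 453 RPM in the knockdown libraries, 7.47-fold higher (log2 2.90, SE 0.07, edgeR, adjusted p = 4.67e-06). In the chelator experiment Nolc1 stood at 810 and 758 RPM under DMSO, then at 352 and 166 RPM with CPX, 3.24-fold lower (-1.69, SE 0.37, limma, adjusted p = 0.0159). Its groups were apart in both experiments, the CPX libraries differed over 2-fold from each other, and its difference between effects was the largest of the 51 (4.69, SE 0.43, limma, adjusted p = 2.09e-04). Tcof1 stood at 39.6 and 38.6 RPM, then 142 and 157 RPM after the knockdown (1.83, SE 0.08, edgeR, adjusted p = 9.60e-06). Tcof1 fell from 345 and 357 RPM with DMSO to 132 and 57.5 RPM with CPX (-2.00, SE 0.40, limma, adjusted p = 0.0123).

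Mybbp1a, a nucleolar protein that binds MYB and takes part in ribosomal RNA synthesis, stood at 163 and 158 RPM in the scramble libraries and 540 and 574 RPM in the knockdown libraries (1.69, SE 0.07, edgeR, adjusted p = 8.58e-06). It fell from 1246 and 1089 RPM to 665 and 368 RPM with CPX (-1.23, SE 0.31, limma, adjusted p = 0.0253). Ddx21, an RNA helicase that links RNA polymerase I and II transcription, took another course. It rose 5.28-fold after the knockdown, from 167 and 161 RPM to 853 and 1010 RPM (2.40, SE 0.10, edgeR, adjusted p = 8.71e-06). With CPX its libraries (1464 and 998 RPM) overlapped those with DMSO (1693 and 1367 RPM) and the change was not called (-0.33, SE 0.26, limma, adjusted p = 0.332).

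Ncl and Npm1 encode nucleolin and nucleophosmin, the abundant scaffold proteins of the nucleolus, and they moved in opposite directions after the knockdown. Ncl rose 2.17-fold, from 641 and 657 RPM to 1440 and 1589 RPM (1.12, SE 0.08, edgeR, adjusted p = 4.38e-05). Npm1 stood at 2656 and 2682 RPM in the scramble libraries and 2145 and 2224 RPM in the knockdown libraries (-0.40, SE 0.08, edgeR, adjusted p = 0.00505). This small fall of Npm1 was not called and had the other sign with quantile normalization (0.08, limma, adjusted p = 0.295) and with length and GC content taken out (0.21, limma, adjusted p = 0.0586), and Npm1 has processed pseudogenes with which reads may be shared. With CPX both fell, Ncl from 5837 and 4608 RPM to 2666 and 2110 RPM (-1.13, SE 0.23, limma, adjusted p = 0.0127) and Npm1 from 4402 and 3469 RPM to 2020 and 2069 RPM (-0.93, SE 0.20, limma, adjusted p = 0.016). Per kilobase of 1 annotated transcript Npm1 had the highest level of the 51 in the scramble group (1634 RPM per kb) and in the DMSO group (2410 RPM per kb), and the lowest were Gar1 in the scramble group (6.41 RPM per kb) and Nmd3 in the DMSO group (14.4 RPM per kb).

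The box C/D snoRNP, which places methyl groups on ribosomal RNA, has fibrillarin (Fbl) as its methyltransferase and Nop56 and Nop58 as its paired scaffold proteins. After the knockdown Fbl and Nop56 rose while Nop58 fell. Fbl stood at 8.32 and 8.66 RPM in the scramble libraries and 40.1 and 34.8 RPM in the knockdown libraries, 4.09-fold higher (2.03, SE 0.12, edgeR, adjusted p = 2.01e-05). Nop56 rose 2.29-fold from 204 and 189 RPM to 469 and 502 RPM (SE 0.07 on the log2 scale, edgeR, adjusted p = 2.34e-05). Nop58 fell 1.58-fold from 927 and 887 RPM to 617 and 622 RPM (-0.66, SE 0.07, edgeR, adjusted p = 1.92e-04). The groups did not overlap for either scaffold gene, but with length and GC content taken out the fall of Nop58 was not called (-0.10, limma, adjusted p = 0.206). Rrp9, a protein of the U3 snoRNP that starts processing of the 18S part, was not called at 267 and 293 RPM in the scramble libraries and 290 and 276 RPM in the knockdown libraries (-0.09, SE 0.07, edgeR, adjusted p = 0.311).

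With CPX the order was different, and Nop56 and Rrp9 fell most. Nop56 fell 4.9-fold from 730 and 741 RPM to 137 and 163 RPM (-2.29, SE 0.19, limma, adjusted p = 0.00242). Rrp9 fell 4.79-fold from 345 and 287 RPM to 88.5 and 48.2 RPM (-2.26, SE 0.33, limma, adjusted p = 0.00521). Nop58 fell 1.89-fold from 634 and 538 RPM to 356 and 267 RPM (-0.92, SE 0.23, limma, adjusted p = 0.0233). Fbl was not called (590 and 505 RPM with DMSO, 444 and 229 RPM with CPX, -0.77, SE 0.34, limma, adjusted p = 0.117), although its groups did not overlap.

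The box H/ACA snoRNP converts uridines to pseudouridines, with dyskerin (Dkc1) as its enzyme and Nop10, Nhp2 and Gar1 as partners; the same proteins also belong to telomerase. After the knockdown Gar1 and Dkc1 rose and Nop10 and Nhp2 fell. Gar1 stood at 8.61 and 7.68 RPM in the scramble libraries and 28.7 and 31 RPM in the knockdown libraries, 3.4-fold higher (1.77, SE 0.12, edgeR, adjusted p = 3.14e-05). Dkc1 rose 1.38-fold, from 322 and 317 RPM to 459 and 494 RPM (0.47, SE 0.07, edgeR, adjusted p = 9.50e-04). Nop10 fell 1.8-fold, from 237 and 249 RPM to 143 and 148 RPM (-0.85, SE 0.06, edgeR, adjusted p = 3.94e-05). The fall of Nhp2 was the smallest of the 4 changes, from 236 and 231 RPM to 220 and 197 RPM (-0.27, SE 0.07, edgeR, adjusted p = 0.0118), and its sign turned with length and GC content taken out (0.02, limma, adjusted p = 0.803).

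Dkc1 had the largest fall of all 51 with CPX, 9.9-fold, from 489 and 414 RPM with DMSO to 56.6 and 35.8 RPM (-3.31, SE 0.28, limma, adjusted p = 0.00242). Its difference between effects was 3.88 (SE 0.30, limma, adjusted p = 1.21e-04). The partners fell less or were not called. Nop10 fell 4.4-fold, from 93.8 and 83.2 RPM to 14.3 and 27.1 RPM (-2.14, SE 0.36, limma, adjusted p = 0.00739). Nhp2 fell 2.98-fold, from 262 and 234 RPM to 117 and 58.7 RPM (-1.58, SE 0.35, limma, adjusted p = 0.0173). Gar1 stood at 162 and 137 RPM under DMSO, then at 104 and 49.6 RPM with CPX and was not called (-1.04, SE 0.38, limma, adjusted p = 0.072). Nop10 was the only member of the complex that was lower in CPX replicate 1 than in replicate 2.

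**Figure D3:**
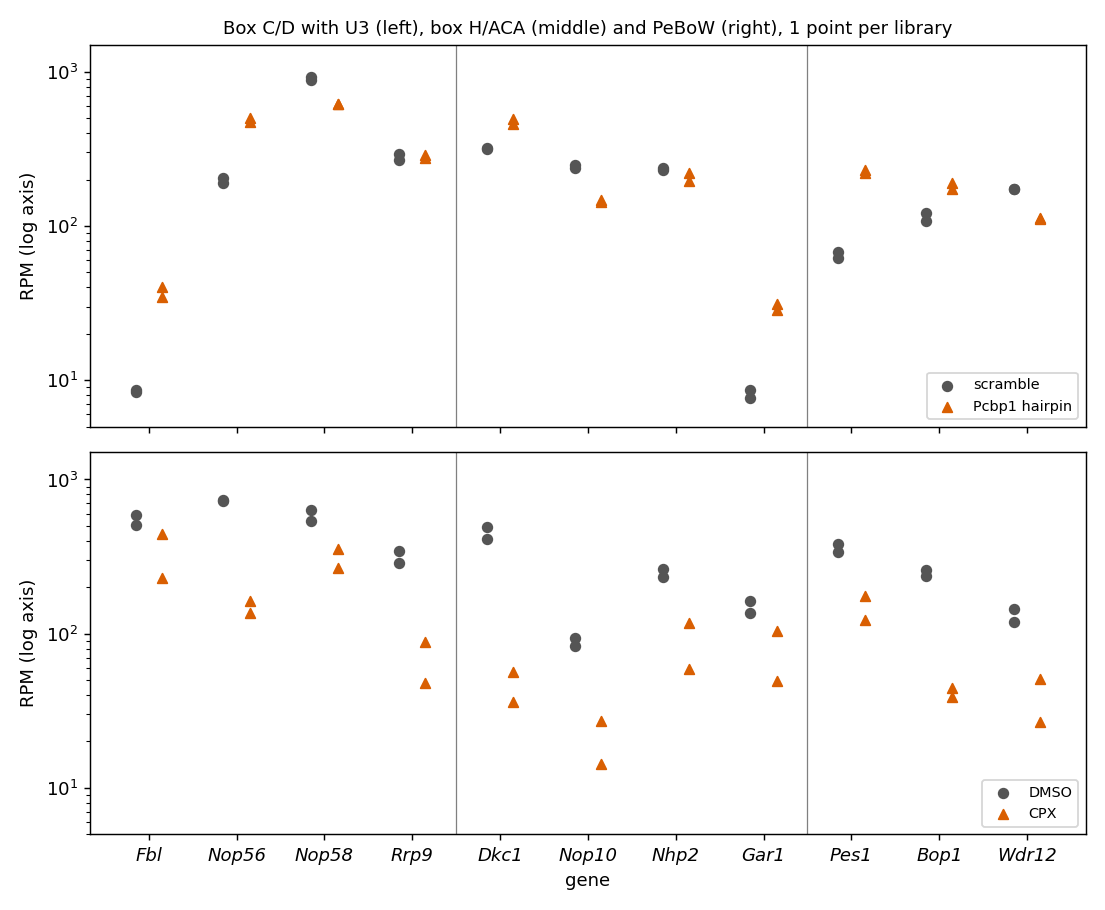
RPM (log axis) of the box C/D and U3, box H/ACA and PeBoW genes, 1 point per library, in the knockdown experiment (top) and the chelator experiment (bottom). In the top panel Fbl, Nop56, Gar1, Dkc1, Pes1 and Bop1 lie higher in the knockdown libraries and Nop58, Nop10, Nhp2 and Wdr12 lower. In the bottom panel the CPX libraries of all 11 genes lie below the DMSO libraries.

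The small subunit processome is the large particle that folds and cuts the 18S precursor. Of its 14 members 6 rose and 6 fell after the knockdown and 2 were not called, with a median of -0.11, and 11 fell with CPX. Noc4l, which works with Nop14, rose 3.67-fold after the knockdown, from 29.6 and 31.8 RPM to 121 and 122 RPM (1.88, SE 0.07, edgeR, adjusted p = 8.04e-06). Noc4l fell with CPX from 305 and 280 RPM to 118 and 89.1 RPM (-1.51, SE 0.23, limma, adjusted p = 0.00553). Nat10, the acetyltransferase that places acetylcytidine on 18S RNA, rose 2.02-fold after the knockdown, from 99.1 and 96 RPM to 214 and 210 RPM (1.01, SE 0.06, edgeR, adjusted p = 1.79e-05). Nat10 fell 9.61-fold with CPX, from 285 and 262 RPM to 23.3 and 33.5 RPM (-3.26, SE 0.26, limma, adjusted p = 0.00242). Its difference between effects was 4.38 (SE 0.25, limma, adjusted p = 6.81e-05).

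The other rises of processome genes after the knockdown were Pwp2 (log2 0.76), Heatr1 (0.43), Imp4 (0.22) and Nop14 (0.20). Pwp2 and Heatr1 belong to the subcomplexes that load first on the nascent RNA, and Imp4 binds the U3 RNA with Imp3 and Mphosph10. The call of Heatr1 was lost under 1 of 13 alternatives, and those of Imp4 and Nop14 under 8 of 13 each. Among these 8 were DESeq2 and the authors' deposited table (adjusted p = 0.0766 for Imp4 and 0.149 for Nop14). The change of Imp4 turned sign with length and GC content taken out (-0.03, limma, adjusted p = 0.801). The falls were Wdr75 (-0.57), Dcaf13 (-0.56), Wdr36 (-0.38), Wdr43 (-0.37), Mphosph10 (-0.33) and Ddx10 (-0.21), all WD-repeat proteins save Mphosph10 and the helicase Ddx10. With length and GC content taken out the signs of Mphosph10 (0.13, limma, adjusted p = 0.109) and Ddx10 (0.10, limma, adjusted p = 0.212) turned and Dcaf13 was not called (-0.06, limma, adjusted p = 0.423). Ddx10 was also not called without scramble replicate 1 (edgeR, adjusted p = 0.143) or knockdown replicate 1 (0.0713). Wdr3 (-0.05) and Imp3 (-0.17) were not called.

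With CPX the U3 partners Mphosph10 (log2 -1.95) and Imp3 (-1.78) fell, while the third, Imp4, was not called (202 and 200 RPM with DMSO, 181 and 96 RPM with CPX, limma, adjusted p = 0.186). Wdr43 (-1.78), Pwp2 (-1.56), Wdr3 (-1.39), Wdr75 (-1.28), Nop14 (-1.15), Heatr1 (-0.99) and Wdr36 (-0.96) also fell. Dcaf13 and Ddx10 were not called, and Dcaf13 stood at 131 and 124 RPM under DMSO, then at 142 and 101 RPM with CPX, with overlapping groups.

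Of the 5 later 40S assembly factors, which carry the small subunit to the cytoplasm, 3 rose after the knockdown, 0 fell and 2 were not called, and 4 fell with CPX. Bysl, which encodes bystin, rose 3.13-fold after the knockdown, from 29.9 and 30.2 RPM to 97.8 and 105 RPM (1.65, SE 0.08, edgeR, adjusted p = 1.16e-05). Bysl fell 4.28-fold with CPX, from 194 and 177 RPM to 46.4 and 39.9 RPM (-2.10, SE 0.22, limma, adjusted p = 0.00285). Both sets of replicates lay close together, and the difference between effects was 3.83 (SE 0.19, limma, adjusted p = 5.87e-05). Rrp12, an export factor of both subunits, rose from 43 and 43.7 RPM to 110 and 127 RPM (1.34, SE 0.09, edgeR, adjusted p = 3.00e-05). Rrp12 fell with CPX from 215 and 184 RPM to 60 and 26.4 RPM (-2.31, SE 0.41, limma, adjusted p = 0.00868).

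Tsr1, a GTPase-like placeholder on the pre-40S particle, rose after the knockdown (0.50) and fell with CPX (-1.65). Nob1, the nuclease that makes the final cut of 18S RNA, was not called after the knockdown (0.20, edgeR, adjusted p = 0.0575) and fell with CPX (-1.35). Ltv1, an export adaptor, stood at 156 and 168 RPM in the scramble libraries and 172 and 190 RPM in the knockdown libraries, and at 199 and 151 RPM with DMSO and 127 and 80.6 RPM with CPX. It was called in neither experiment (0.05, edgeR, adjusted p = 0.601, and -0.77, limma, adjusted p = 0.0842).

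The PeBoW complex of Pes1, Bop1 and Wdr12 is needed to separate the internal spacer from the 28S RNA of the large subunit. After the knockdown Pes1 and Bop1 rose and Wdr12 fell. Pes1 rose 3.21-fold, from 62.1 and 68.2 RPM to 220 and 230 RPM (1.68, SE 0.07, edgeR, adjusted p = 9.60e-06). Bop1 rose 1.46-fold, from 108 and 122 RPM to 189 and 174 RPM (0.55, SE 0.08, edgeR, adjusted p = 8.49e-04). Wdr12 fell 1.68-fold, from 174 and 174 RPM to 112 and 111 RPM (-0.75, SE 0.06, edgeR, adjusted p = 4.41e-05). All 3 fell with CPX, so the complex changed in 1 direction there and in both directions after the knockdown.

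With CPX Bop1 fell 5.96-fold, from 238 and 260 RPM to 38.6 and 44.2 RPM (-2.58, SE 0.21, limma, adjusted p = 0.00242). Wdr12 fell 3.52-fold, from 144 and 119 RPM to 50.7 and 26.6 RPM (-1.82, SE 0.36, limma, adjusted p = 0.0115). Pes1 fell 2.45-fold, from 382 and 337 RPM to 176 and 122 RPM (-1.29, SE 0.25, limma, adjusted p = 0.0109).

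Of the 15 other 60S assembly factors with values 8 rose after the knockdown, 3 fell and 4 were not called, and 10 fell with CPX. Rrs1, which brings the 5S ribonucleoprotein into the large subunit, rose 7.3-fold after the knockdown, from 13.8 and 17.9 RPM to 119 and 131 RPM (2.87, SE 0.13, edgeR, adjusted p = 9.67e-06). It fell from 303 and 253 RPM with DMSO to 153 and 57.9 RPM with CPX (-1.55, SE 0.46, limma, adjusted p = 0.0411), CPX libraries that differed over 2-fold from each other. Its difference between effects was 4.50 (SE 0.57, limma, adjusted p = 7.48e-04).

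Rrp1 and Rrp1b are paralogs that join the early 60S particle. After the knockdown both rose, Rrp1 from 66.5 and 79.8 RPM to 197 and 209 RPM (1.37, SE 0.10, edgeR, adjusted p = 3.34e-05) and Rrp1b from 145 and 158 RPM to 228 and 247 RPM (0.54, SE 0.08, edgeR, adjusted p = 6.53e-04). With CPX Rrp1b fell 8.3-fold, from 322 and 296 RPM to 39.6 and 34 RPM (-3.05, SE 0.21, limma, adjusted p = 0.00242). Rrp1 was not called with CPX, at 371 and 387 RPM with DMSO and 398 and 426 RPM with CPX (0.12, SE 0.18, limma, adjusted p = 0.613). Their groups thus lay near each other with DMSO and far apart with CPX. No test of 1 paralog against the other was run.

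Ppan, a homologue of the yeast factors Ssf1 and Ssf2, rose after the knockdown from 182 and 198 RPM to 322 and 291 RPM (0.58, SE 0.08, edgeR, adjusted p = 4.55e-04). Ppan fell 4.9-fold with CPX, from 530 and 512 RPM to 146 and 77 RPM (-2.29, SE 0.33, limma, adjusted p = 0.00493). Ddx56, a nucleolar helicase, had a small fall after the knockdown, from 164 and 170 RPM to 159 and 154 RPM (-0.20, SE 0.06, edgeR, adjusted p = 0.0209). That call was lost under 6 of 13 alternatives, among them DESeq2 (adjusted p = 0.0612), limma (0.211) and the authors' deposited table (0.0792), and without scramble replicate 2 (0.113), knockdown replicate 1 (0.0504) or knockdown replicate 2 (0.0537). Its fall with CPX was larger, 4.95-fold from 165 and 156 RPM to 36.6 and 28 RPM (-2.31, SE 0.24, limma, adjusted p = 0.00288).

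The other rises after the knockdown were Brix1 (1.18), Gnl2 (1.03), Noc3l (0.41) and Nop2 (0.35), and the other falls were Nip7 (-0.91) and Gnl3 (-0.41). Nop2 is the methyltransferase of a cytosine in 28S RNA, and Gnl2 and Gnl3 (nucleostemin) are nucleolar GTPases. Gnl2 rose from 124 and 132 RPM to 274 and 289 RPM after the knockdown while Gnl3 fell from 474 and 476 RPM to 373 and 396 RPM, a fall that was not called with length and GC content taken out (-0.02, limma, adjusted p = 0.815). With CPX Brix1, Noc3l, Nop2, Gnl3, Ebna1bp2 and Nop16 fell, with log2 values of -1.67 to -1.01. Gnl2 was not called, at 346 and 288 RPM with DMSO and 494 and 264 RPM with CPX, where the groups overlapped.

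Nip7, Ddx18 and Nmd3 were not called with CPX. Nip7 stood at 345 and 318 RPM in the scramble libraries and 197 and 183 RPM in the knockdown libraries, the lowest log2 fold change of the 51. Ddx18, a helicase, stood at 144 and 148 RPM and at 152 and 172 RPM in those groups, and at 301 and 248 RPM with DMSO and 197 and 105 RPM with CPX (0.04, edgeR, adjusted p = 0.66, and -0.93, limma, adjusted p = 0.0728). Nmd3, the adaptor that exports the 60S subunit, stood at 75.1 and 65.4 RPM and at 76.4 and 81.6 RPM, and at 139 and 124 RPM with DMSO and 111 and 52.4 RPM with CPX (0.06, edgeR, adjusted p = 0.567, and -0.78, limma, adjusted p = 0.147). These misses do not show that the genes stayed the same, since in the chelator experiment the SEs of Ddx18 and Nmd3 were 0.34 and 0.38.

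The members' share of all reads gives the size of the whole set. The 51 genes made up 1.30% and 1.32% of the scramble totals and 1.60% and 1.67% of the Pcbp1 hairpin totals. They made up 2.80% and 2.37% of the DMSO totals and 1.38% and 1.00% of the CPX totals. The DMSO share was higher than the scramble share, and the scales of the 2 experiments are not joined by any common sample.

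Members that rose after the knockdown stood lower in the scramble group than in the DMSO group. For the 28 that rose the scramble level minus the DMSO level had a median of -1.94 log2 units (-5.93 to -0.31), for the 14 that fell 0.46 (-0.55 to 1.45), and for the 9 not called -0.28. This gap and the knockdown effect share the scramble libraries. The gap was widest for Fbl (-5.93), Gar1 (-4.11), Rrs1 (-4.10), Nolc1 (-3.84), Noc4l (-3.23) and Ddx21 (-3.21), and after the knockdown it was -3.85, -2.30, -1.15, -0.84, -1.26 and -0.71 for the same genes. Across the 51, levels in the scramble group and the DMSO group had a Pearson's r of 0.38 and a Spearman's rho of 0.28, and levels in the Pcbp1 hairpin group and the DMSO group 0.77 and 0.73. Over all 10430 genes the corresponding Pearson values were 0.83 and 0.89. The SD of the gap to DMSO over the members was 1.57 log2 units in the scramble group and 0.78 in the Pcbp1 hairpin group, against 1.29 and 1.05 over all genes. These are descriptions across genes that share libraries, and DMSO differs from both hairpin groups in RNA selection, transduction and scale, which cannot be told apart.

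**Figure D4:**
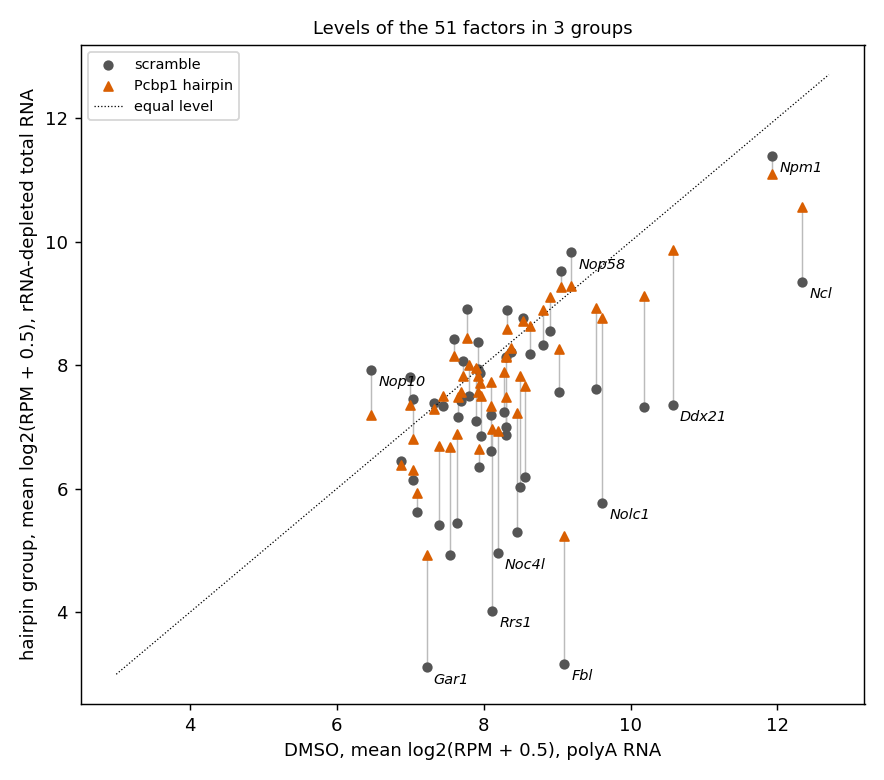
Mean log2(RPM + 0.5) of each of the 51 factors with DMSO (x axis, polyA RNA) against the scramble group (circles) and the Pcbp1 hairpin group (triangles, y axis, total RNA depleted of ribosomal RNA), with a grey line joining the points of a gene. Fbl, Gar1, Rrs1, Nolc1, Noc4l and Ddx21 lie far below the dotted line of equal level in the scramble group and nearer to it in the Pcbp1 hairpin group.

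Base composition moved with the same split. The GC content of 1 annotated transcript per gene had a median of 53% in the 28 members that rose after the knockdown and of 44.5% in the 14 that fell. Across the 51 the knockdown log2 fold change and GC content had a Pearson's r of 0.47 (Spearman's rho 0.51), against 0.24 (0.25) over all genes. For the CPX log2 fold change the value was -0.34 (-0.38), against 0.01 (0.01). With log2 transcript length the knockdown log2 fold change had a Pearson's r of 0.15 (Spearman's rho 0.21) across the 51. Over all genes that relation was closer than the one with GC content, at 0.33 (0.36). The part of base composition in the knockdown calls was tested only by the fit that takes length and GC content out, given above.

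Other genes of the ribosome pathway give the setting. Of 85 other biogenesis factors 42 rose and 23 fell after the knockdown (median 0.21), and 3 rose and 46 fell with CPX (quartiles -1.66 and -0.45). The shares of all genes called higher and lower were 29.3% and 26.7% after the knockdown and 20.0% and 24.8% with CPX. The genes named next were picked from the 85 for the smallest p-values in each comparison, so large changes were fixed by the choice. Pdcd11 and Bms1, both of the small subunit processome, and Nol9, a kinase of the large subunit pathway, rose after the knockdown and fell with CPX. Others of the 85 did not show this pattern, and some fell in both. Pdcd11 stood at 73.4 and 70.1 RPM in the scramble libraries, 281 and 278 RPM after the knockdown, 481 and 461 RPM with DMSO and 77.9 and 86.3 RPM with CPX (1.86 by edgeR, adjusted p = 6.89e-06, and -2.51 by limma, adjusted p = 0.00242).

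Of 14 genes of the RNA polymerase I machinery 6 rose and 5 fell after the knockdown (median 0.05), and 7 fell and 0 rose with CPX (median -0.78). Of all genes tested, 29.3% rose and 26.7% fell after the knockdown, and 20.0% rose and 24.8% fell with CPX. The 78 cytosolic ribosomal protein genes, whose products the factors assemble, showed other counts. After the knockdown 7 rose and 54 fell (median -0.54, against 0.00 over all genes). With CPX 8 rose and 0 fell (median 0.40, against -0.12 over all genes). Rises of these genes with CPX were thus not more frequent than among all genes, while falls were less frequent. Medians of the factors and of the ribosomal protein genes had opposite signs in each experiment (0.35 and -0.54, then -1.39 and 0.40). No test of 1 list against another was run, and ribosomal protein genes have many processed pseudogenes with which reads may be shared.

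**Figure D5:**
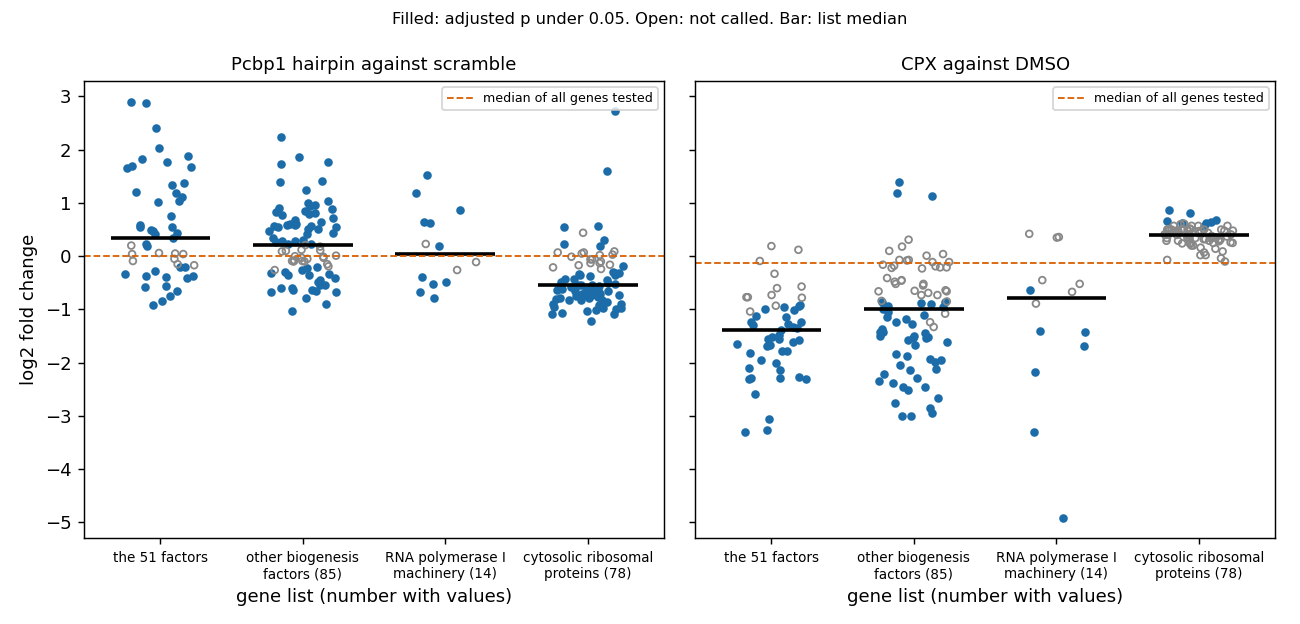
Log2 fold change of each gene in 4 lists after the knockdown (left) and with CPX (right). Filled points passed the test, open points did not, black bars are list medians and the dashed line is the median of all genes tested. The factors have medians of 0.35 and -1.39, and the cytosolic ribosomal proteins of -0.54 and 0.40.

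Markers of other cells differed most in the CPX libraries. The 6 macrophage and monocyte markers summed to 67.6 and 46.3 RPM with CPX and to 2.19 to 4.71 RPM in the other 6 libraries, and 3 of them rose with CPX (Itgam, Cd68 and Emr1). Lyz2 was listed at 0 in every library, and Csf1r and Cd14 stood at most at 0.42 and 0.349 RPM in any. The 4 dendritic cell markers summed to 22.8 and 26 RPM with CPX and to 2.95 and 3.22 RPM with DMSO. With CPX most of this was Itgax (13.3 and 21.7 RPM) and Zbtb46 (8.91 and 4.26 RPM). Siglech stood at 0 and Flt3 at 0.521 and 0.104 RPM. The 4 neutrophil markers summed to 7.24 and 5.51 RPM with CPX and to 0.102 and 0.0512 RPM with DMSO. Nearly all of the CPX sum was Mpo (7.19 and 5.35 RPM). S100a9 stood at 0 and Ly6g at 0.0521 and 0.156 RPM with CPX, and S100a8 was listed at 0 in every library. CD8 T cell markers summed to 90.5 and 92 RPM in replicate 1 of the scramble and Pcbp1 hairpin groups and to 11.9 and 11.6 RPM in replicate 2, alike in both groups. The part of these differences in marker levels in the changes of the factors was not tested. In bulk RNA fewer cells of a type and less RNA per cell cannot be told apart.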

How the data were processed

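RNA-seq libraries of mouse Th1 cells were analysed from the authors' deposited tables. Per the submitters' processing notes, reads were handled with cutadapt, STAR, HTSeq and DESeq on the mm9 build, and the sources used here give no versions, annotation or strand setting. The knockdown columns hold raw counts that the authors deposited, and the chelator columns behave as a score, counts that the authors rescaled by a factor not given and rounded. The design took the knockdown columns as counts and used no count model for the chelator columns. Neither set of columns holds RPM as deposited. Per the file headers, the authors deposited, for each comparison, a mean signal (counts over size factors), log2 fold changes, a Wald score and p-values. They were used for names and comparison.

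From a constant line on (23487630 in every library, labelled Ins1), each label of the per-library table held the values of the preceding gene. Labels were set right by the authors' mean signals, giving values to 33879 genes and leaving 20 without. Matches lay within 1e-06 of the value in the knockdown table. In the chelator table they lay within 1.2 units or, for high means, within a small fixed fraction of the mean. Of the members, 34 had displaced labels and 17 their own.

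RPM is the value over the library total times 1e+06. A gene was tested where 2 or more of an experiment's 4 libraries reached 1 RPM. Counts of the knockdown experiment were fitted with edgeR 4.0.16 (quasi-likelihood, TMM), and CPX and the difference between effects with limma 3.58.1 on log2(RPM + 0.5) (R 4.3.3), so a fold change of a low gene is understated. Adjusted p-values are Benjamini-Hochberg over all genes tested. The knockdown SE was derived from edgeR's F statistic (log2 fold change divided by its square root). The tests were checked on simulated data. GC content and length come from 1 GENCODE M21 transcript per gene (APPRIS principal first), and promoters from RefSeq. DESeq2 1.42.0 was an alternative. The other alternatives were filters, pseudocounts, scalings, a replicate block, leaving out each library, and removal of length and GC content.

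The members and lists were chosen with earlier results of these data known. Named with values in every library are all box C/D, U3, box H/ACA and PeBoW genes, the 12 largest knockdown changes, the 8 largest CPX changes and the 6 largest differences among called members, the highest and lowest levels, the members called in neither experiment and at most 4 other genes. The other biogenesis factors named were those with the smallest p-values in each comparison. Other members given in full were added after their values were seen. Exon overlap with another annotated gene was found for 15 members.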

Additional observations from a re-analysis of the deposited data

How the results depend on the processing

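The number of libraries, 2 per group, limits the precision. Most counts of members called stayed within 1.5 times their value, with these exceptions. With no filter 22 members fell with CPX, and leaving out 1 library gave 15 to 44. Leaving out 1 library gave 0 to 2 members with a called difference below 0. The knockdown median ran from 0.26 to 0.43 without 1 library, was 0.46 with limma on log2(RPM + 0.5), and was 0.26 with length and GC content taken out, a fit in which 7 members fell. The median difference between effects ran from 1.55 to 2.00 without 1 library and was 1.35 with TMM scaling. The fall of Pcbp1 with CPX ran from -1.39 to -1.13 without 1 library and was not called without DMSO replicate 1 (-1.30) or 2 (-1.22). Signs turned after the knockdown for Npm1 with quantile normalization (0.08) and, with length and GC content taken out, for Npm1 (0.21), Nhp2 (0.02), Mphosph10 (0.13), Imp4 (-0.03) and Ddx10 (0.10). The cause was not tested.

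Replicates share only a number in the labels. The CD8 T cell markers followed that number in both hairpin groups (90.5 and 92 RPM in replicate 1, 11.9 and 11.6 RPM in replicate 2). Deviations of same-numbered libraries correlated at 0.289 in the knockdown and 0.101 in the chelator experiment. With a replicate block 29 members rose and 15 fell after the knockdown, 44 fell with CPX, and 45 had a called difference above 0. Of the calls, 25 of 28 rises and 6 of 14 falls after the knockdown, 14 of 39 falls with CPX and 34 of 42 differences held under every alternative that could be fitted.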
